A study of Mus musculus with 8 samples.

Results

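The ATP-binding cassette (ABC) transporters were followed across 8 oligonucleotide arrays of mouse hepatocytes. The members were taken by gene symbol, as all probe sets whose annotated symbol is Abc, a letter from a to g and a number, with Abcc2, Abcc3 and Abcb11 left out. This gave 42 genes with 89 probe sets, of 18192 genes with 34944 probe sets that name a single gene. The arrays hold AML12 cells, a line of mouse hepatocytes, and AML12 cells transfected with v-erbA, an avian viral oncoprotein derived from the thyroid hormone receptor. Both lines were sampled at 3 h or 24 h, without treatment or in 1 µM retinoic acid (RA). Each of the 8 combinations of line, treatment and time was measured on 1 array. What drives v-erbA in the transfected cells, and whether they are 1 clone or a pool, is not given in the sources used here, so that v-erbA cannot be told apart from transfection and clone. The time was read from the titles, and for 3 of the 4 arrays titled 24 h the description names 3 h.

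No combination was replicated. Each p-value therefore sets an effect against the scatter of the arrays about additive effects, and that scatter may be technical. Array medians lay between 71.2 and 76.1 units. Markers of hepatocytes and of other liver cells were read as whole lists. All 8 hepatocyte markers on the array were tested, and Alb and Ttr, products of hepatocytes, read 9364 to 11053 and 10526 to 10879 units. All 8 hepatocyte markers together summed to 31160 to 37250 units in AML12 and 29380 to 35060 units in v-erbA cells. Alb and Ttr made up most of each sum. The 4 biliary markers were all tested, led by Krt19 with 1377 to 4190 units, and summed to 4772 to 5953 units in AML12 and 3240 to 4125 units in v-erbA cells. Of 4 macrophage markers Csf1r and Adgre1 were tested and Ptprc and Cd68 were under the pooled median of all values, 73.5 units, on every array, with sums of 173.5 to 319.3 and 236.5 to 405.4 units. Of 4 endothelial markers Kdr was tested, Pecam1 and Cdh5 were under that level throughout, and the sums were 132.3 to 219.6 and 81.2 to 247.6 units. Of 4 fibroblast markers Col1a1 and Col1a2 were tested, with sums of 222.1 to 291.6 and 138.3 to 285.7 units.

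ABC transporters bind ATP in a pair of conserved nucleotide-binding domains and use its hydrolysis to move lipids, bile constituents, conjugates, drugs or peptides across membranes. Subfamilies A, B, C, D and G hold mostly membrane transporters, while ABCE and ABCF proteins lack membrane domains and act on the ribosome. In liver cells the family serves sterol efflux, bile formation, detoxification, peroxisomal fatty acid import and mitochondrial haem metabolism. Several members are textbook targets of nuclear receptors that pair with RXR, the partner shared by the retinoic acid, liver X and thyroid hormone receptors.

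Promoter sequence was available for 33 of the 42 genes, with 40 start sites. The letters AGGTCA, the core motif of this receptor class, were searched on both strands in the 250 bases before each start. They stood before 5 of the 40 member starts, those of Abcb6, Abcc10 and Abcg2, and before 14.0% of all 32851 starts. The paired forms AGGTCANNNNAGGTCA and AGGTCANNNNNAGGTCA, which overlap the single motif, were found before no member start and before 0.0152% and 0.00913% of all starts. The known liver X receptor and RXR element of Abca1, searched as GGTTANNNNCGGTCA, was found before 1 member start, that of Abca1 itself, and before 0.0122% of all. It was searched for after the Abca1 sequence had been seen. The promoters of Abca3, Abca8a and Abca8b had also been drawn and hold no AGGTCA in this window. The sequences below are those of the genes that hold a match, chosen for that reason, with the matches in capitals, 5′ to 3′ on the gene's strand, from RefSeq on GRCm38.p6. They lie at chr4:53159896-53160145 (minus strand) for Abca1, chr1:75180393-75180642 (minus) for Abcb6, chr17:46328024-46328273 (minus) for Abcc10 and chr6:58584283-58584532 (plus) for Abcg2.
Abca1: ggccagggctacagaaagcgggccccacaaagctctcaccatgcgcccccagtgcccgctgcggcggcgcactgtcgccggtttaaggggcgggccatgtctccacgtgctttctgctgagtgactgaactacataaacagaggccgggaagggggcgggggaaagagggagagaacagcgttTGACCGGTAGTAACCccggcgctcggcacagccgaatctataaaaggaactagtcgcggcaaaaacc
Abcb6: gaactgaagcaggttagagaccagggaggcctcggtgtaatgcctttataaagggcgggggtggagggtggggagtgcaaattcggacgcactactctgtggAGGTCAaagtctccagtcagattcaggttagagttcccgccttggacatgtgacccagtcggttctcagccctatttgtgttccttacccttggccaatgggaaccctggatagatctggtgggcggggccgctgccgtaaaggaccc
Abcc10: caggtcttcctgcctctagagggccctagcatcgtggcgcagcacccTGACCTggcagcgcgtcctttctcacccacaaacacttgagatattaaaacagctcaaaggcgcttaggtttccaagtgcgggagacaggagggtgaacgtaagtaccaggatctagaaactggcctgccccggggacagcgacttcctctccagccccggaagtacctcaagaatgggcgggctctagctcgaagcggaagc
Abcg2: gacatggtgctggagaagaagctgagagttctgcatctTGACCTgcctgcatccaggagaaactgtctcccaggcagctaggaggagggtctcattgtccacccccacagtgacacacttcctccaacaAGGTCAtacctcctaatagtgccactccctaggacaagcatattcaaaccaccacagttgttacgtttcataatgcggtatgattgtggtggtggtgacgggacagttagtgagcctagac
The Abca1 element begins 67 bases before the start. Abcg2 has 3 starts in the table, of which 2 have a match, and the one shown holds a pair of matches in opposite orientation, 212 and 121 bases before the start. A match describes the letters of the window and was not shown here to bind a receptor.

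Signals are in the deposited linear units, and differences were taken on the scale log2(signal + 19.9), on which changes of dim genes come out too small. Testing required more than 73.5 units on 2 or more of the 8 arrays. Of the 42 members, 28 were tested, namely 9 of 14 in subfamily A, 5 of 7 in B, 5 of 8 in C, 1 of 3 in D, the single member of E, 3 of 3 in F and 4 of 6 in G. The other 14 were dim, and for them no difference was tested. They were Abca9, Abca12, Abca13, Abca14, Abca16, Abcb1b, Abcb9, Abcc8, Abcc9, Abcc12, Abcd2, Abcd4, Abcg1 and Abcg5. Among all member probe sets, 35 exceeded the level on no array and 42 on every array.

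In v-erbA cells more members were lower than higher, most of them by small amounts. Over the 4 pairs of arrays with the same treatment and time, 5 members rose with v-erbA (17.9% of those tested) and 11 fell (39.3%), while 12 did not pass an adjusted p of 0.05 in limma. Of all genes tested, 26.5% rose and 27.0% fell. Unadjusted, 17 of the 28 tested members had a p under 0.05, as did 7115 of all 11997 genes tested. The median difference over the tested members was -0.11 on the log2 scale, against 0.01 over all genes tested. In subfamily C, 4 of 5 tested members fell and none rose. Among the 4 is Abcc10, which exceeded the level on 2 arrays only, both of AML12. Another is Abcc5, whose other tested probe sets lay on both sides of 0. In subfamily A, 3 rose and 3 fell. In B, 1 fell, in F, 2 fell, in G, 1 rose and 1 fell, and Abce1 rose. The arrays of the lines did not overlap for 6 of the tested members, Abca3, Abcb6, Abcc1, Abcc6, Abcf3 and Abcg8, and for 38.3% of all genes tested. After centring each array on its median, 2 rose and 12 fell. The number that rose was sensitive to single arrays. Leaving out any array other than the untreated AML12 array of 24 h gave 2 or 3, and only Abca1 and Abce1 rose in each of these fits. Markers moved as well. With v-erbA 1 of 8 hepatocyte markers rose, Serpina1b by 1.89 ± 0.14, and 4 fell, among them Ahsg by 1.32 ± 0.34 and Hnf4a by 0.63 ± 0.05. Of the 4 biliary markers Krt7 rose by 0.47 ± 0.08 and Krt19 fell by 0.93 ± 0.07. The fibroblast marker Col1a2 fell by 0.48 ± 0.12, and no tested macrophage or endothelial marker passed. The untested macrophage markers Ptprc and Cd68, under the level throughout, read higher in v-erbA cells. Ptprc read 14.8 to 23.4 units in AML12 and 45.4 to 55.8 units in v-erbA cells, and Cd68 14.7 to 28.3 and 48.6 to 60.4 units. The part of the markers in the differences of the members was not tested.

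**Figure D1:**
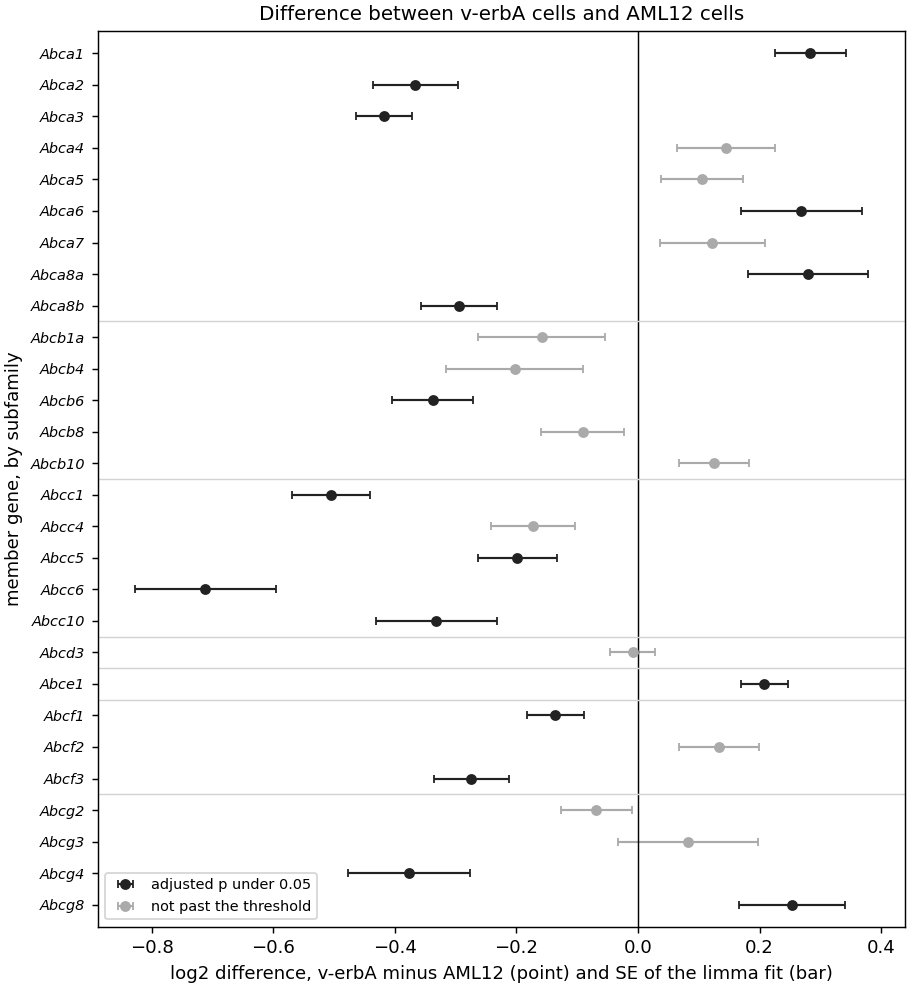
Difference between v-erbA cells and AML12 cells for the 28 tested members, ordered by subfamily. Points are log2 differences of the limma fit over 8 arrays and bars are its SE. The tested members of subfamily C all lie left of 0, with Abcc6 farthest at -0.71, while Abca1, Abca6, Abca8a, Abce1 and Abcg8 lie right of 0 in black.

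With time, more members rose than fell. From 3 h to 24 h, 8 members rose (28.6% of those tested) and 3 fell (10.7%), while 19.3% and 15.0% of all genes tested did so. Among the 3 that fell is Abcg4, which exceeded the level on 3 h arrays only. A further 17 members did not pass. Unadjusted, 13 of the 28 tested members and 5435 of all 11997 genes tested had a p under 0.05. The arrays of the times did not overlap for 5 of the tested members, Abca6, Abca8a, Abca8b, Abce1 and Abcg4, and for 18.8% of all genes tested. Without the untreated 3 h array of either line the count of rises was 5, and Abca1, Abca2, Abca8a, Abca8b and Abcc5 made up that count both times. The labels do not say whether arrays of the times were handled apart, so time and handling cannot be told apart. At 24 h 4 of 8 hepatocyte markers rose and 1, Hnf4a, fell, and of the 4 biliary markers Sox9 rose and Krt19 fell. The macrophage markers Csf1r and Adgre1 fell by 0.81 ± 0.12 and 0.67 ± 0.11, and the fibroblast marker Col1a1 fell by 2.34 ± 0.13, with no more than 119 units on any array. Adgre1 and Col1a1 exceeded the level on 3 h arrays only, and Apoa2, among the hepatocyte markers that rose, on 24 h arrays only. The changes of Adgre1, Col1a1 and Apoa2 are thus not independent of the filter. Of the endothelial markers, the tested Kdr did not pass. The untested Tek read 7.7 to 19.4 units at 3 h and 59.0 to 74.3 units at 24 h. Cdh5, also untested, read 21.4 to 32.3 and 32.5 to 47.8 units. The part of all these markers in the results was not tested.

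**Figure D2:**
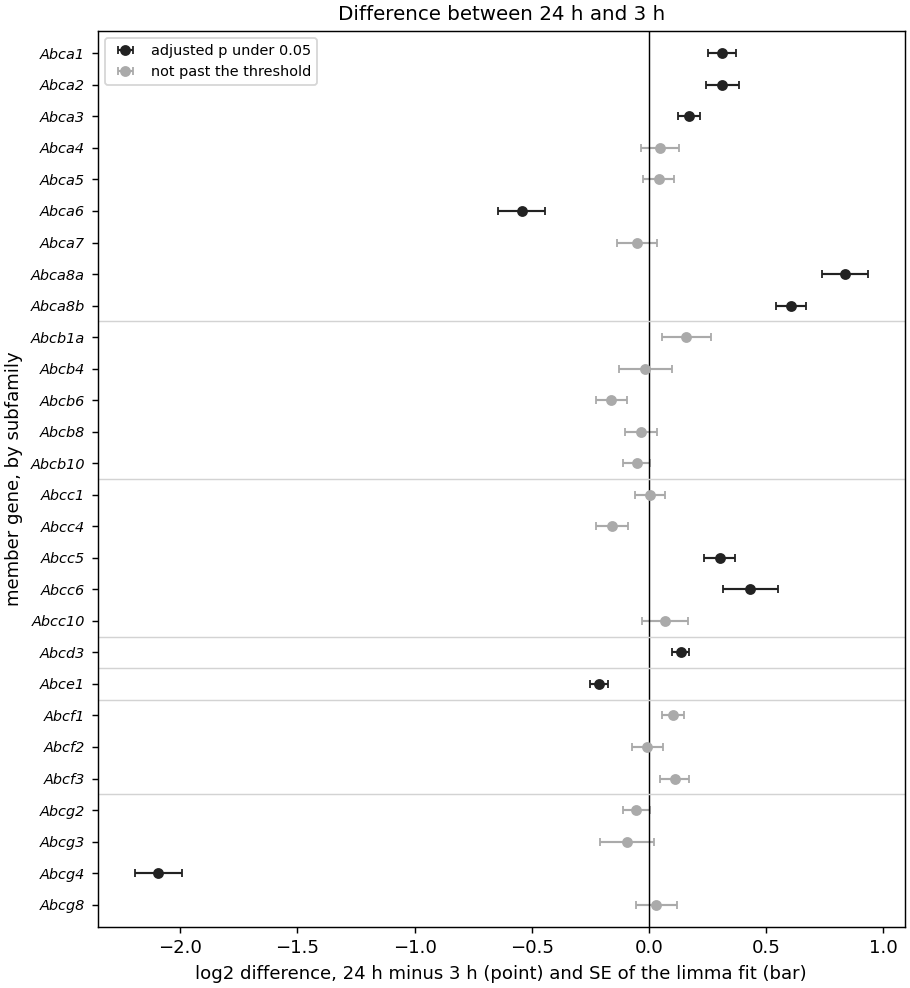
Difference between 24 h and 3 h for the same members, as log2 differences (points) with the SE of the limma fit (bars). Abcg4 lies alone at -2.09, Abca8a and Abca8b lie farthest right at 0.84 and 0.61, and no member of subfamily B passed the test.

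Subfamily A transports sterols and phospholipids. Abca1, which loads cellular cholesterol and phospholipid onto apolipoprotein A-I, read 1641 and 2207 units in AML12 at 3 h without and with RA, and 2097 and 2289 units at 24 h. In v-erbA cells it read 1975, 2335, 2634 and 3161 units in the same order. The v-erbA array was the higher in each of the 4 matched pairs, although the ranges of the lines overlapped. Abca1 rose with v-erbA by 0.28 ± 0.06 (adjusted p = 0.00302 in limma) and at 24 h by 0.31 ± 0.06 (adjusted p = 0.00334). Its other 2 probe sets ran from 311 to 723 units and from 159.9 to 354 units, and rose with v-erbA by 0.29 ± 0.07 and 0.38 ± 0.07.

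Abca8a and Abca8b, neighbouring genes of a lipid transporter cluster in which RefSeq orders Abca8b, Abca8a, Abca9, Abca6 and Abca5 side by side, had the largest rises with time among the members tested. Abca8a read 488 and 475 units in AML12 at 3 h without and with RA, and 1149.8 and 809 units at 24 h. In v-erbA cells it read 619, 682, 1082 and 1053 units in that order. All 24 h arrays lay above all 3 h arrays, and Abca8a rose by 0.84 ± 0.10 with time (adjusted p = 0.000191). Its rise with v-erbA, 0.28 ± 0.10 (adjusted p = 0.0375), was seen in 3 of 4 pairs and passed in 2 of the 8 fits that left out 1 array, those without an untreated 24 h array.

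Abca8b read 342 and 293 units in AML12 at 3 h and 547 and 469.5 units at 24 h, again without and with RA. In v-erbA cells it read 256, 268, 417 and 378 units. The times again did not overlap, and Abca8b rose by 0.61 ± 0.06 at 24 h (adjusted p = 7.96e-05). It fell with v-erbA by 0.29 ± 0.06 (adjusted p = 0.00342), in the direction opposite to its neighbour. Abca6, from the same cluster, fell at 24 h by 0.54 ± 0.10, from 170.5 to 248 units at 3 h to 102 to 158 units, and rose with v-erbA by 0.27 ± 0.10. That rise passed in 2 of the 8 fits with 1 array left out, without the untreated AML12 array of 24 h and without the untreated v-erbA array of 3 h. Abca5 read 187 to 232 units and passed neither test. Abca9, also in that cluster, read no more than 43.4 units with the probe set that stood for it.

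Abca3, which packs surfactant lipid in lung, fell with v-erbA by 0.42 ± 0.05, from 1908 to 2449.8 units in AML12 to 1487 to 1705 units in v-erbA cells. All 3 of its probe sets fell, the others by 0.42 ± 0.07 and 0.33 ± 0.11. With time it rose by 0.17 ± 0.05, a call lost without the 3 h arrays of AML12, untreated or RA-treated, or the untreated v-erbA array of 3 h. Abca2, a lysosomal lipid transporter, read 137 to 196 units in AML12 and 104 to 140.1 units in v-erbA cells, and fell by 0.37 ± 0.07 with v-erbA while rising by 0.31 ± 0.07 with time. Abca4, the retinoid transporter of photoreceptors, read 88.4 to 108 units, and Abca7, a phospholipid transporter, 168 to 220.3 units, and neither passed a test.

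**Figure D3:**
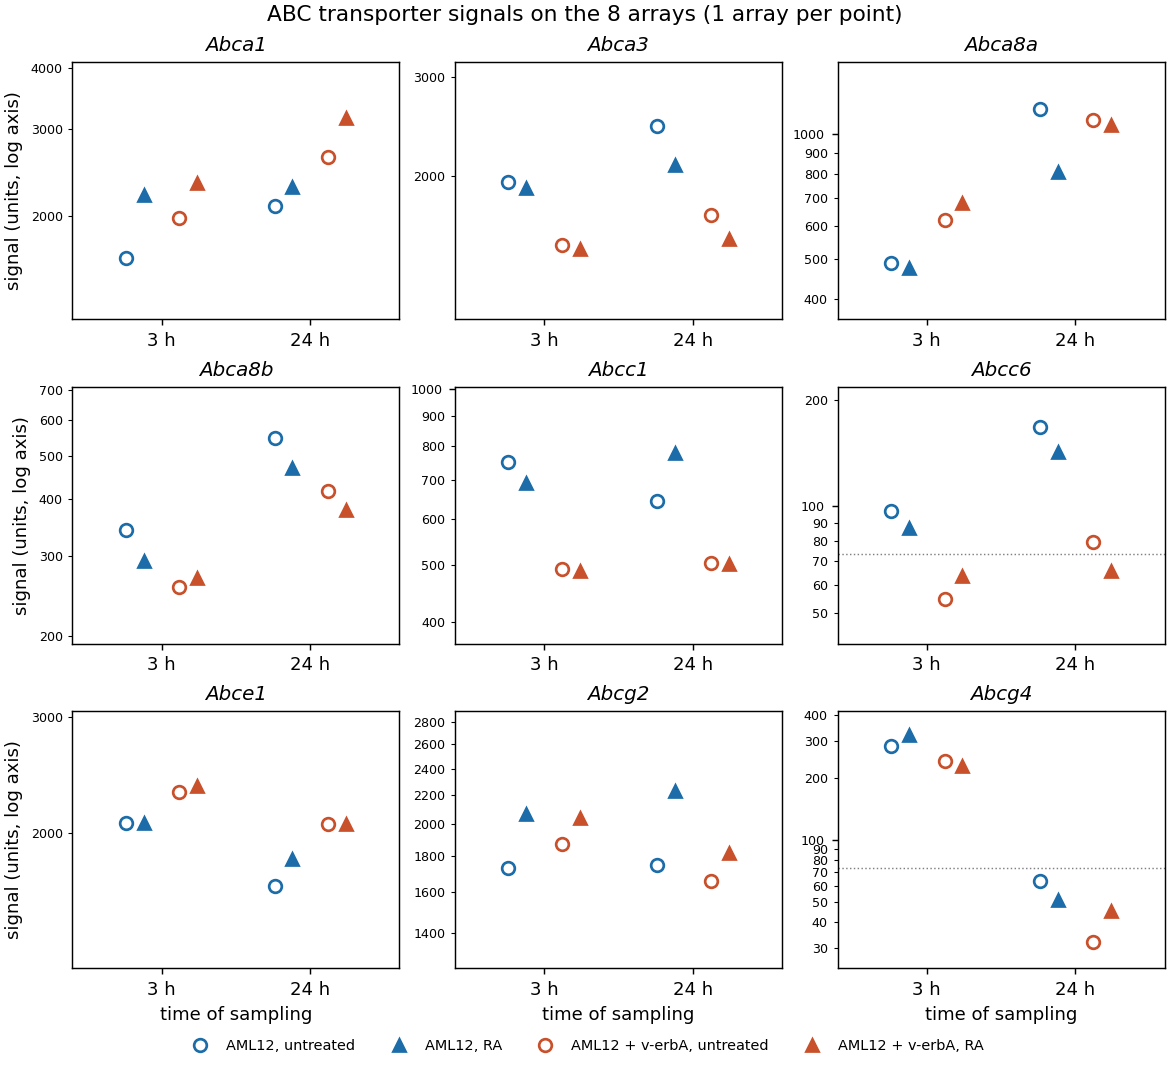
Signal of 9 members on each of the 8 arrays, on log axes that differ between panels. Open circles are untreated cells, triangles RA-treated cells, blue AML12 and orange v-erbA cells, and the dotted line is the level of 73.5 units. Abca8a and Abca8b are higher on all 24 h arrays, Abcg4 is under the line on all of them, and Abcc1 and Abcc6 are lower on all v-erbA arrays.

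Subfamily B holds drug and lipid pumps of the plasma membrane and transporters of mitochondria. Abcb1a, a P-glycoprotein, read 127, 182, 183 and 192 units in AML12 (untreated and RA at 3 h, then at 24 h) and 156, 137, 153 and 152 units in v-erbA cells. Its v-erbA difference was -0.16 ± 0.10 (adjusted p = 0.225). A second Abcb1a probe set, at 79.2, 100.04, 81.3 and 97.9 units in AML12 and 65.0, 76.6, 66.3 and 54.1 units in v-erbA cells, fell by 0.36 ± 0.11 (adjusted p = 0.0193), with no overlap of the lines. Abcb1b, the other P-glycoprotein of rodents and a neighbour of Abcb1a and Abcb4, read 28.4 to 51.3 and 15.4 to 49.5 units with its probe sets, all under the level.

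Abcb4, which flips phosphatidylcholine into bile, read 106, 135, 139 and 106 units in AML12 and 106, 102, 88.7 and 112 units in v-erbA cells, in the same order. The lines overlapped, and the difference of -0.20 ± 0.11 did not pass (adjusted p = 0.158). Abcb10, a mitochondrial transporter of haem-forming cells, read 336, 315, 299 and 296 units in AML12 and 349, 329, 340.4 and 347 units in v-erbA cells, a difference of 0.13 ± 0.06 that did not pass either (adjusted p = 0.0919). Its other probe sets read 108 to 143 units and 56.3 to 78.1 units and did not pass. The porphyrin transporter Abcb6 was the only member of the subfamily to pass a test with the probe set that stood for it. It fell with v-erbA by 0.34 ± 0.07, from 294 to 376 units to 238 to 262 units. The mitochondrial Abcb8 read 378 to 475 units and passed no test, and Abcb9, a lysosomal peptide transporter, exceeded the level on 1 array only, with 85.0 units.

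Subfamily C exports organic anions and conjugates. Abcc6, a transporter of the liver whose loss causes ectopic mineralization, had the largest v-erbA difference of the members tested. It read 97.3, 86.7, 167 and 142 units in AML12 and 54.7, 63.6, 79.2 and 65.6 units in v-erbA cells, in the order given above. Every AML12 array lay above every v-erbA array, and 3 of the 4 v-erbA arrays were under the level. Abcc6 fell with v-erbA by 0.71 ± 0.12 (adjusted p = 0.000787), and rose with time by 0.43 ± 0.12 (adjusted p = 0.0189). The rise with time passed in 3 of the 8 fits with 1 array left out, and was lost without any AML12 array or the untreated v-erbA array of 3 h.

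Abcc1, the multidrug resistance protein that exports glutathione conjugates, read 751, 692, 643 and 776 units in AML12 and 493, 489, 505 and 502 units in v-erbA cells. The lines did not overlap, and Abcc1 fell by 0.50 ± 0.06 (adjusted p = 0.000183). Its second probe set overlapped between the lines. It read 189.6, 186, 189.8 and 224 units against 185, 174, 173 and 190.1 units, and its difference of -0.11 ± 0.07 did not pass (adjusted p = 0.21).

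Abcc4, which exports cyclic nucleotides and bile acids, read 2350.0, 2162, 1707 and 2119 units in AML12 and 1901, 1860.0, 1816 and 1766 units in v-erbA cells. AML12 was the higher in 3 of 4 pairs, all but the untreated pair of 24 h. The difference of -0.17 ± 0.07 missed the threshold (adjusted p = 0.0604). With the matched pairs of arrays as a block it passed (adjusted p = 0.0417), and without the untreated AML12 array of 24 h it was -0.26 and passed (adjusted p = 0.000339). Abcc5, an exporter of cyclic nucleotides, fell with v-erbA by 0.20 ± 0.06 and rose with time by 0.30 ± 0.06, from 496 to 624 units at 3 h to 616 to 807 units. The v-erbA call of Abcc5 passed in 3 of the 8 fits with 1 array left out, those without the untreated AML12 array of 24 h or an untreated 3 h or RA-treated 24 h array of v-erbA cells. It was lost in 8 of 21 settings, with values of -0.26 to -0.03. The other tested probe sets of Abcc5 ran from -0.25 ± 0.09, which passed, to 0.12 ± 0.06, which did not. The direction of Abcc5 with v-erbA thus differed between its probe sets. Abcc10 read 58.8, 83.9, 72.8 and 82.1 units in AML12 and 46.7, 61.6, 52.1 and 58.9 units in v-erbA cells. It fell with v-erbA by 0.33 ± 0.10, and since it was under the level on all v-erbA arrays the fold is at least 1.01. Only the 2 RA-treated AML12 arrays exceeded the level and admitted Abcc10 to the test, so its fall is not independent of the filter. This v-erbA call was lost without the untreated AML12 array of 24 h, the RA-treated AML12 array of 3 h or the RA-treated v-erbA array of 24 h. Abcc12 and the potassium channel subunits Abcc8 and Abcc9 read under the level on every array.

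Of subfamily D, which carries fatty acyl groups into peroxisomes, Abcd3 was tested. It read 1855, 2126, 2184 and 2233 units in AML12 and 1931, 2066, 2116 and 2225 units in v-erbA cells. The lines overlapped and differed by -0.01 ± 0.04. At 24 h Abcd3 rose by 0.14 ± 0.04 (adjusted p = 0.0204), a difference seen in all 4 pairs. It passed in 4 of the 8 fits with 1 array left out, and was lost without the untreated 3 h array of either line, the untreated v-erbA array of 24 h or the RA-treated v-erbA array of 3 h. Its other probe set stayed between 13.2 and 25.5 units. Abcd2 and the cobalamin transporter Abcd4 were dim.

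Abce1, which splits ribosomes for reuse, moved in both comparisons. It read 2072, 2071, 1659 and 1827 units in AML12 and 2312, 2359, 2067 and 2066 units in v-erbA cells. The v-erbA array was the higher in every pair and the 24 h array the lower. Abce1 rose by 0.21 ± 0.04 with v-erbA (adjusted p = 0.00153) and fell by 0.21 ± 0.04 with time (adjusted p = 0.00262). A second probe set, at 839, 884, 688 and 828 units in AML12 and 940.3, 977, 824 and 824 units in v-erbA cells, rose by 0.14 ± 0.05 with v-erbA (adjusted p = 0.0499) and fell by 0.20 ± 0.05 with time. The third, at 55.4 to 107 units, passed neither test.

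The ABCF proteins act in translation and its control. Abcf1 fell with v-erbA by 0.14 ± 0.05 with the probe set that stood for it, at 958 to 1234 units, a call that passed with 1 array left out only without the untreated AML12 array of 24 h. Another of its probe sets, at 853 to 902 units in AML12 and 1009.9 to 1092 units in v-erbA cells, rose by 0.23 ± 0.04 (adjusted p = 0.00174). The direction of Abcf1 thus differed between its probe sets. Abcf3 fell by 0.27 ± 0.06, from 199.7 to 227 units to 161 to 182 units. Abcf2 read 277 to 355 units with a difference of 0.13 ± 0.07 that did not pass, while its second probe set rose by 0.38 ± 0.09. None of the 3 passed for time by the probe sets that stood for them, while another probe set of Abcf1 fell at 24 h by 0.29 ± 0.07 (adjusted p = 0.013).

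Subfamily G holds transporters that work as dimers, for sterols or for drugs. Abcg2, the breast cancer resistance protein, read 1732, 2069, 1751 and 2229.8 units in AML12 and 1874, 2039, 1659.7 and 1819.8 units in v-erbA cells. The lines overlapped, and neither the v-erbA difference of -0.07 ± 0.06 nor the time difference of -0.05 ± 0.06 passed. Abcg8, which forms the sterol exporter of bile with its neighbour Abcg5, read 78.2, 74.1, 76.6 and 87.3 units in AML12 and 99.2, 98.3, 101 and 93.0 units in v-erbA cells. The lines did not overlap, and Abcg8 rose by 0.25 ± 0.09 (adjusted p = 0.0348). The call passed in 2 of the 8 fits with 1 array left out, those without an RA-treated 24 h array. Its partner Abcg5 read 16.0 to 31.6 units, under the level on all arrays.

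Abcg1, which passes cholesterol to high-density lipoprotein, was over the level on 1 array. It read 38.7, 53.6, 39.4 and 42.1 units in AML12 and 43.0, 48.3, 67.8 and 89.7 units in v-erbA cells, the 2 highest being the v-erbA arrays of 24 h. Its second probe set was under the level throughout, at 0.851 to 39.2 units.

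Abcg4, a sterol transporter known from brain, had the largest change with time among the members tested. It read 283 and 323 units in AML12 and 240.2 and 227 units in v-erbA cells at 3 h, without and with RA. At 24 h it read 63.6, 51.3, 31.9 and 45.2 units in the same order, so that every 24 h array was under the level. Abcg4 fell by 2.09 ± 0.10 (adjusted p = 6.51e-07), or at least 3.65-fold. Abcg4 entered the test only through its 3 h arrays, so this fall is not independent of the filter. Its second probe set read 18.1 to 27.2 units on all arrays and did not show this change. With v-erbA Abcg4 fell by 0.38 ± 0.10 (adjusted p = 0.011), although the ranges of the lines overlapped. This call was lost in 2 of 20 settings, among them the 24 h arrays alone. The rodent gene Abcg3 read 73.3 to 101 units and passed no test.

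Of the members, 10 changed with both v-erbA and time and 11 of those tested with neither. The share of all genes that changed with both or with neither was not counted, so these numbers set the members apart from no background. Taken singly, 26.5% of all genes tested rose and 27.0% fell with v-erbA, and 19.3% rose and 15.0% fell at 24 h. Abca2, Abca3, Abca8b, Abcc5 and Abcc6 were lower with v-erbA and higher at 24 h. Abca1 and Abca8a were higher in both comparisons, Abca6 and Abce1 higher with v-erbA and lower at 24 h, and Abcg4 lower in both. These comparisons use the same 8 arrays.

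Other probe sets of the changed genes were compared with those used. Of the 16 members called for v-erbA, 7 had further tested probe sets, 18 in all, of which 10 had the same sign and 8 the opposite. When every probe set was tested on its own, 6 of the 10 passed and, of the 8, that of Abcf1, against 26.8% of all 21319 probe sets higher and 25.3% lower. The opposite signs came from Abcc5 and Abcf1. For time, 4 of 11 called members had 13 further probe sets, 10 of the same sign and 3 opposite, with 17.2% of all probe sets higher at 24 h and 14.2% lower. Abca8a, Abca8b, Abca6, Abca2 and Abcc6 have 1 probe set each.

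**Figure D4:**
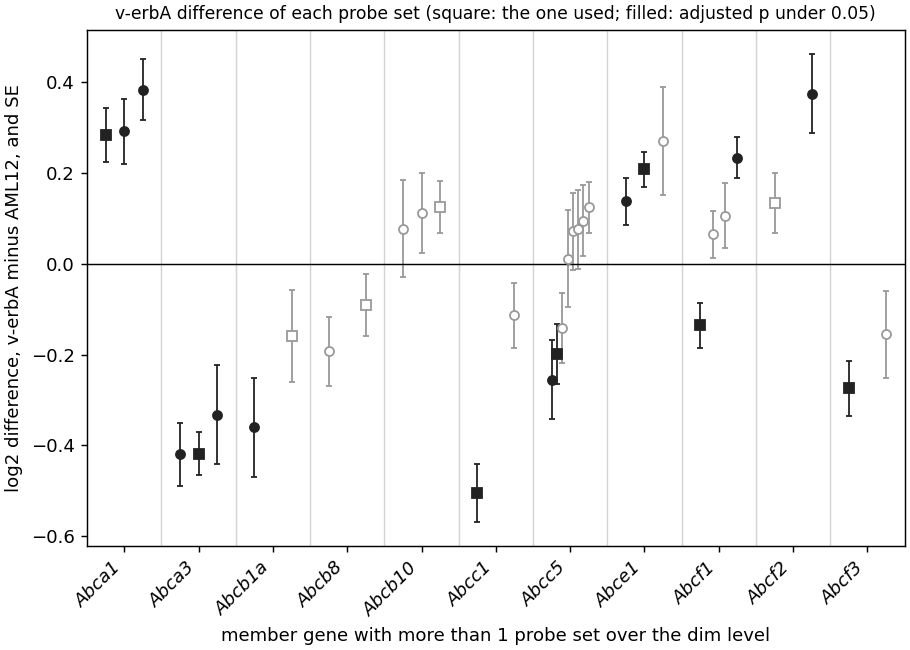
v-erbA difference of each tested probe set of the members with more than 1, with the SE of the limma fit. Squares are the probe sets that stood for the gene and filled symbols passed an adjusted p of 0.05. The probe sets of Abca1 and Abca3 lie on one side of 0, while those of Abcf1 and Abcc5 lie on both sides.

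RA changed no member beyond the threshold. Over the 4 pairs matched by line and time, 0 of 28 tested members rose and 0 fell by limma, against 0.825% and 0.367% of all genes tested. Unadjusted, 4 members had a p under 0.05, as did 1242 of all 11997 genes tested. The fitted differences ran from -0.18 for Abca6 to 0.26 for Abca1, with a median of 0.02. The 4 members with an unadjusted p under 0.05 were Abca1 (0.26 ± 0.06, adjusted p = 0.0891), Abcg2 (0.21 ± 0.06, adjusted p = 0.175), Abcd3 (0.10 ± 0.04) and Abcc10 (0.24 ± 0.10). Each was higher with RA in all 4 pairs. Abcc10 entered the test only through the 2 RA-treated AML12 arrays, at 83.9 and 82.1 units, that exceeded the level. Its RA difference is therefore not independent of the filter. The Abca1 difference was 0.42 and 0.13 in AML12 at 3 h and 24 h, and 0.24 and 0.26 in v-erbA cells. That of Abcg2 was 0.25 and 0.35 in AML12, and 0.12 and 0.13 in v-erbA cells. Abca1 passed when the RA-treated AML12 array of 24 h was left out (0.32, adjusted p = 0.0331). In the 3 h arrays alone Abca1, Abcd3 and Abcg2 passed, and Abca1 and Abcg2 did with all 2-way interactions in the model. The 3 h fit leaves 1 residual degree of freedom, and the model with all 2-way interactions fewer than 3. Both calls thus lean on the variance that limma shares over genes. The share of all genes called for RA in these 2 fits was not counted. With the matched pairs as a block, Abca1 passed (adjusted p = 0.0437) and no other member did. Within AML12 alone 0 members passed, with 4 at an unadjusted p under 0.05 and 0.3% of all genes called. Within v-erbA cells 0 passed, with 1 at an unadjusted p under 0.05 and 0.0% of all genes called. For these fits within a line the share of all genes at an unadjusted p under 0.05 was not counted.

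In no single pair of arrays did a member reach 2-fold. The share of all genes that did was 0.198% in AML12 at 3 h, 1.08% in AML12 at 24 h, 0.0624% in v-erbA cells at 3 h and 0.158% in v-erbA cells at 24 h. The members at the ends of these pairs were Abcb1a (0.45) and Abca7 (-0.27) in AML12 at 3 h, and Abcg2 (0.35) and Abca6 (-0.51) in AML12 at 24 h. In v-erbA cells they were Abca1 (0.24) and Abcc5 (-0.17) at 3 h, and Abcb4 (0.28) and Abcc6 (-0.21) at 24 h. These pairs have 1 array a side and no test.

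No member's response was found to depend on another factor. The RA effect differed between the lines for 0 members by limma, with 0 at an unadjusted p under 0.05 and 0.0% of all genes called. The time effect differed between the lines for 0 members, against 0.1% of all genes. Here 2 members had an unadjusted p under 0.05, Abca1 with 0.22 ± 0.09 and Abcg2 with -0.23 ± 0.09, as v-erbA minus AML12. Without the RA-treated AML12 array of 24 h this difference passed for 2 members, Abca8a and Abcc4. The RA effect differed between 24 h and 3 h for 0 members, against 0.0167% of all genes, with 1 member, Abcc5 (0.25 ± 0.10), at an unadjusted p under 0.05. These tests have 3 residual degrees of freedom, and a missed threshold does not show equal responses.

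Genes that work with the members were counted from lists. Of 12 tested genes of sterol efflux and the liver X receptor, which act with Abca1, Abcg5 and Abcg8, 1 rose and 7 fell with v-erbA, when 26.5% of all genes tested rose and 27.0% fell. Among them Apoa1, the acceptor of Abca1 lipid, fell by 2.98 ± 0.31, and Rxra, from the list of regulators, fell by 0.91 ± 0.07. Of 9 peroxisomal partners of subfamily D, 0 rose and 8 fell with v-erbA, among them Ehhadh by 1.07 ± 0.13, where Abcd3 differed by -0.01 ± 0.04. Of 10 mitochondrial iron and haem genes, the setting of Abcb10, 1 rose and 6 fell. Of 11 translation genes that act with Abce1 and the ABCF proteins, 5 rose and 3 fell. Of 9 solute carriers and scaffolds of hepatocyte transport, 4 rose and 2 fell. Of 10 regulators of transporter genes, 1 rose and 6 fell with v-erbA, and with RA 1 rose and 2 fell, against 0.825% and 0.367% of all genes, the rise being that of the repressor Nr0b2 (2.10 ± 0.17). At 24 h the sterol list had 5 rises and 0 falls, and the translation list 0 rises and 2 falls, against 19.3% and 15.0% of all genes.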

How the data were processed

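The deposited values are linear signal intensities, 1 for each probe set on each array. Per the labels' protocols, total RNA was biotin-labelled for Affymetrix arrays. How the authors summarized probes and scaled arrays is not given in the sources used here, and their scaling was kept. Probe sets were named by the platform annotation, and those naming 1 gene were used. For each gene the probe set with the highest mean log2 value stood for it. Values were transformed to log2(signal + 19.9), the offset being the 20th percentile of all values. The 11997 genes with at least 2 of 8 arrays over the pooled median of 73.5 units, which is not a detection call, were fitted with limma 3.58.1 (R 4.3.3), with the trend option of its empirical Bayes step. The additive model of line, treatment and time left 4 residual degrees of freedom, and models with 1 interaction left 3. Fits within 1 time left 1. P-values were adjusted by Benjamini-Hochberg over all genes tested. Where every array of the lower group was under the level, the printed fold is a lower bound: the higher group's mean signal divided by the level. The fit was tested on simulated data. Figures used matplotlib 3.10.9 in Python 3.11.15.

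The members and gene lists were chosen with earlier results of these data known. Every member is named. Values on all arrays are given for members called for v-erbA or time with at least 1.5-fold, for RA or an interaction at any size, and always for Abca1, Abcg1, Abcb1a, Abcb1b, Abcb4, Abcc1, Abcc4, Abcg2, Abcg5, Abcg8, Abcd3, Abcb10 and Abce1, with Abcb1b and Abcg5, dim on every array, given by their range. From each other list at most 4 genes were named per comparison. Alternatives changed the scaling, offset, filter, probe set, variance model and model, or left out arrays. The number of arrays limits the precision.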

Additional observations from a re-analysis of the deposited data

How the results depend on the processing

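The 27 called gene changes were recomputed 540 times under up to 21 alternative settings: 462 values kept direction and call, 77 kept direction only, and 1, Abcf1 with v-erbA at 0.060 from the mean of its probe sets, reversed. Of the 27, 14 were called under every setting run. The cause of the losses was not tested. Members higher with v-erbA, 5 as reported, numbered 2 after median centring, 3 after quantile normalization and 2 in the 24 h arrays alone, and 2 to 4 when 1 array was left out. Members lower with v-erbA, 11 as reported, numbered 5 in the 24 h arrays alone and 8 to 11 with 1 array left out. Members higher with RA, 0 as reported, numbered 1 after median centring, 1 with the matched pairs as a block, 2 with all 2-way interactions, 3 in the 3 h arrays alone, and 0 to 1 with 1 array left out. Members higher at 24 h, 8 as reported, numbered 5 from the mean of probe sets and 5 to 8 with 1 array left out. Members with a time effect that differed between lines, 0 as reported, numbered 0 to 2 with 1 array left out. The labels give no replicate numbers, and the block holds the 4 pairs of arrays matched on the other 2 factors, with 3 residual degrees of freedom, chosen after the data were seen. It changed no call other than those of Abca1 for RA and Abcc4 for v-erbA among the gene changes recomputed.

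For the 14 genes described in full that were tested, 27 uncalled changes were recomputed 551 times: 489 stayed uncalled in the same direction, 16 passed in the same direction, and 46 changed sign, 0 of these passing. After quantile normalization the changed values were Abcd3 at 0.029 for v-erbA, Abcg8 at 0.016 for RA, Abcc1 at -0.025 for time and Abcg8 at -0.0016 for time. In the 3 h arrays alone the changed values were Abcd3 at 0.0084 for v-erbA, Abcg2 at 0.046 for v-erbA, Abca8a at 0.049 for RA, Abcc1 at -0.063 for RA, Abcc4 at -0.075 for RA and Abcc6 at 0.013 for RA. In the 24 h arrays alone the changed values were Abcb10 at 0.0078 for RA, Abcb4 at -0.022 for RA and Abcg8 at 0.025 for RA. With the mean of probe sets the changed values were Abcd3 at -0.052 for RA, Abce1 at -0.0073 for RA and Abcb10 at 0.0086 for time. After median centring the changed values were Abcg8 at 0.019 for RA, Abcc1 at -0.033 for time and Abcg8 at -0.0051 for time. With 1 array left out, the values that changed sign ran, for Abcd3 from -0.036 to 0.013 for v-erbA, for Abca8a from -0.20 to 0.022 for RA, for Abcb1a from -0.031 to 0.18 for RA, for Abcb4 from -0.018 to 0.16 for RA, for Abcc1 from -0.033 to 0.078 for RA, for Abcc4 from -0.062 to 0.089 for RA, for Abcg4 from -0.027 to 0.13 for RA, for Abcg8 from -0.058 to 0.032 for RA, for Abcb4 from -0.12 to 0.071 for time, for Abcc1 from -0.047 to 0.069 for time and for Abcg8 from -0.021 to 0.069 for time.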
